A study of Homo sapiens with 18 samples.

Results

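The genes described here encode 10 LIM-domain proteins of actin stress fibres and adhesions: the zyxin family members ZYX, TRIP6 and LPP, the PDZ-LIM proteins PDLIM1, PDLIM2, PDLIM4, PDLIM5 and PDLIM7, and the related LIM proteins FHL2 and LIMA1. They were selected by symbol as a gene family, and each matched 1 of the 60683 gene rows of each of 2 count tables. The list was drawn up with earlier results of these data known. Counts of called members beside the share over all genes are therefore a description. All libraries came from HCT-116, a long-established colorectal cancer line of human origin and epithelial character. The ACTB table held 3 groups of 3 libraries, all made from Actin KO cells: ACTB-mut (labelled as over-expressing mutant actin, the H73A form per the series design text), ACTB-WT (labelled as over-expressing wild-type actin) and Actin KO (with an empty construct, per the same text). H73A replaces the histidine of beta-actin that the enzyme SETD3 methylates. The SETD3 table held 3 groups of 3 libraries of cells with their own ACTB: SETD3 KO2, SETD3 KO1 and the control, SETD3 CT. The labels do not say whether KO1 and KO2 are each a clone, or whether replicates were separate cultures, so the p-values reflect the spread among these libraries, which may be technical.

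LIM domains are zinc-binding folds, and in several of these proteins they recognise actin filaments under tension. Zyxin gathers at strained stress fibres and brings in Ena/VASP proteins and alpha-actinin, which lengthen and crosslink filaments, while PDZ-LIM proteins dock on alpha-actinin through their PDZ domain. Several family members also enter the nucleus. Unpolymerised actin holds back the coactivators MRTFA and MRTFB, which act with SRF at a DNA element named the CArG box, and the coactivators YAP and TAZ act with TEAD factors, whose core element reads GGAATG.

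The ACTB libraries held 5144386 to 11271910 counts, and the SETD3 libraries held 3389586 to 11652967. ACTB RNA stood at 47.1, 32 and 43.0 CPM in ACTB-mut and 31.0, 29.2 and 23.2 CPM in ACTB-WT, against 16.7, 24.9 and 14.9 CPM in Actin KO and 662 to 1460 CPM in the 9 SETD3 libraries, so the add-back libraries are called by their labels. RNA of ACTG1, the gene of the other cytoplasmic actin, was abundant in all groups. It stood at 5910 to 7120 CPM in ACTB-mut and 7750 to 8590 CPM in ACTB-WT, against 6890 to 7590 CPM in Actin KO. In the SETD3 libraries, which were scaled apart, it stood at 1930 to 4190 CPM. SETD3 RNA stood at 15.6, 22.3 and 27.7 CPM in KO2 and 6.81, 6.34 and 17.1 CPM in KO1, against 15.5, 14.0 and 36.0 CPM in SETD3 CT, and the libraries of both lines overlapped those of the control. The cell line label of KO2 replicate 3 reads HCT-117. KO2 replicate 1 and SETD3 CT replicate 2 stood apart: they were the shallowest SETD3 libraries, and their median correlation with the other libraries of their table was 0.872 and 0.9, against 0.924 to 0.944 in all others. The differences of each knockout line from SETD3 CT are therefore given with and without them. Of 7 epithelial markers, 6 averaged at least 1 CPM in every group, summing to 7950 to 13400 CPM a library, while VIL1 had no count in KO2 or SETD3 CT. Of 7 fibroblast markers 4 to 5 had no count in a group, and the list summed to 0.597 to 15.3 CPM a library.

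Promoter sequences of 9 members were read from RefSeq (GRCh38.p14) as windows of 250 bases before and 50 bases after each start. The CArG box, on either strand, was in 1.29% of all 35116 windows, and GGAATG, on either strand, in 14.0%. Counted by gene, 1.6% of 27305 genes held a CArG box in at least 1 window, and 16.7% held GGAATG. A gene with more windows has more places for a match. The stretches that carry a match are shown for FHL2 and TRIP6, with the matched letters in capitals, and the upstream stretch of PDLIM5 is shown because PDLIM5 had the largest called change of the members. Stretches inside annotated exons are limited to the site.
FHL2 upstream start, chr2:105438514-105438763, minus strand: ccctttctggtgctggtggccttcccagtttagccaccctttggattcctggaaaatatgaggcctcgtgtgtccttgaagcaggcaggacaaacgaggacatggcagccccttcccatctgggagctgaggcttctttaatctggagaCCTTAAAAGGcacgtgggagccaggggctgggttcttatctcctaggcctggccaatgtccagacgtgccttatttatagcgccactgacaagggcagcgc
FHL2 inner start, chr2:105399091-105399120, minus strand: gcgtgcatctCCTTATATGGtcaaatgaca
TRIP6, chr7:100867306-100867335, plus strand: gaccctcccccaGGAATGtggtgacgtcat
PDLIM5, chr4:94451692-94451856, plus strand: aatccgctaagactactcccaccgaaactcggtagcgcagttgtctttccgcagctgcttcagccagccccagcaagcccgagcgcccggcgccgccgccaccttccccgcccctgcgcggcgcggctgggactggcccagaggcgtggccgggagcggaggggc
The boxes of FHL2 lay 101 and 59 bases before their starts, and a neighbouring start shared the first box. LPP held a CArG box in 1 of its 7 windows, 183 bases before that start. The TRIP6 element lay 69 bases before the start. GGAATG was also found before 1 start of FHL2, 2 of LPP and 1 of LIMA1. The windows of ZYX, PDLIM5, PDLIM1, PDLIM4 and PDLIM7 held neither run of letters, which says only that these letters are not in these windows.

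In the libraries labelled with either actin, PDLIM5 was over 3 times its level in Actin KO and ZYX was less than 0.5 of its level there. TRIP6 also lay below Actin KO in both, and passed the test in ACTB-WT but not in ACTB-mut. The remaining 6 tested members did not pass in either comparison. In ACTB-WT against Actin KO, 3 of the 9 tested members were called in edgeR's quasi-likelihood test, 1 higher and 2 lower, where 1.12% of all 13882 tested genes were called (0.439% higher and 0.677% lower). In ACTB-mut against Actin KO, 2 of 9 were called, 1 higher and 1 lower, where 0.922% of all tested genes were called (0.324% higher and 0.598% lower). The median log2 fold change of the 9 members was -0.35 in ACTB-WT, beside -0.01 over all tested genes, and -0.06 in ACTB-mut, beside 0.03 over all tested genes. Both comparisons use the same 3 Actin KO libraries, so each is given with its own values. In these bulk samples, fewer cells of a type and less RNA per cell cannot be told apart.

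ZYX (zyxin, ENSG00000159840, GRCh38 chromosome 7, 143381080 to 143391111, plus strand) stood at 154, 205 and 263 CPM in ACTB-mut and 152, 256 and 221 CPM in ACTB-WT, against 434, 460 and 494 CPM in Actin KO. Every add-back library lay below every Actin KO library, and the libraries of the add-back groups interleaved. ZYX fell in ACTB-mut by 1.16 on the log2 scale (SE 0.20, 95% interval -1.57 to -0.74, edgeR adjusted p = 0.0104). It fell in ACTB-WT by 1.14 (SE 0.20, interval -1.56 to -0.72, adjusted p = 0.00754), a level 2.21-fold lower. Without Actin KO replicate 3 the change in ACTB-mut was -1.12 with an adjusted p of 0.0545. ZYX shares 82 exon bases with EPHA1 on the other strand, of 3482, and whether counting used strand is not given.

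TRIP6 (ENSG00000087077, chromosome 7, 100867138 to 100873454, plus strand) is a zyxin relative of focal adhesions that also enters the nucleus, and was the most abundant member. It stood at 472, 479 and 436 CPM in ACTB-mut and 490, 439 and 367 CPM in ACTB-WT, against 599, 677 and 669 CPM in Actin KO. Neither add-back group overlapped Actin KO. TRIP6 fell by 0.59 on the log2 scale in ACTB-WT (SE 0.12, interval -0.84 to -0.33, edgeR adjusted p = 0.025), a level 1.5-fold lower. In ACTB-mut its difference was -0.49 (SE 0.12, interval -0.74 to -0.23), with an adjusted p of 0.0768 that did not pass. Of 6 fits that each left out a library, 5 lost the call in ACTB-WT (adjusted p up to 0.118), and it held without ACTB-WT replicate 1 (0.0256).

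LPP (ENSG00000145012, chromosome 3, 188153284 to 188890671, plus strand), the third member of the zyxin family here, was rare. It stood at 17.2, 13.4 and 7.36 CPM in ACTB-mut and 3.98, 4.97 and 6.80 CPM in ACTB-WT, against 9.82, 6.75 and 8.22 CPM in Actin KO. The ACTB-mut libraries overlapped those of Actin KO, and so did those of ACTB-WT. Its differences from Actin KO were 0.62 in ACTB-mut (adjusted p = 0.708) and -0.65 in ACTB-WT (adjusted p = 0.698). The 95% intervals, -0.38 to 1.61 and -1.67 to 0.37, allow changes of either sign.

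PDLIM5 (Enigma homolog, also named ENH, ENSG00000163110, chromosome 4, 94451857 to 94668227, plus strand) ties protein kinase C isoforms and alpha-actinin to the cytoskeleton. It stood at 138, 123 and 125 CPM in ACTB-mut and 148, 128 and 121 CPM in ACTB-WT, against 26.3, 49.2 and 44.2 CPM in Actin KO. The lowest add-back library was at 121 CPM and the highest Actin KO library at 49.2 CPM. PDLIM5 rose in ACTB-mut by 1.69 on the log2 scale (SE 0.21, interval 1.25 to 2.13, edgeR adjusted p = 0.00114), a 3.23-fold change that ranked 6 among all tested genes by p. It rose in ACTB-WT by 1.73 (SE 0.21, interval 1.29 to 2.17, adjusted p = 0.000385), 3.32-fold and rank 17. Both calls held in all 15 alternative fits of each comparison. The deposited PDLIM5 values were fractional in every library, so part of its reads had been divided with other genes. LPP values were also fractional in every library. FHL2 values were whole in 0 of 9 ACTB libraries and 1 of 9 SETD3 libraries, and PDLIM2 values in 1 of 9 and 4 of 9.

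**Figure D1:**
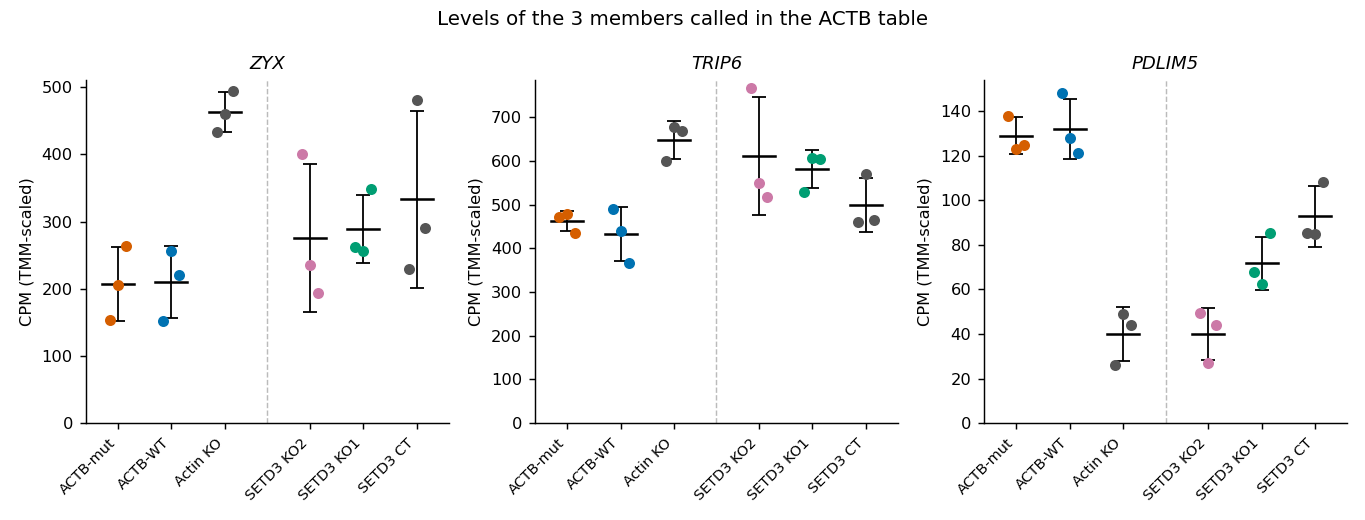
TMM-scaled CPM of ZYX, TRIP6 and PDLIM5 in each library (points), with the group mean (bar) and SD (whiskers) of 3 libraries, and a dashed line between the 2 tables, which were scaled apart. ZYX and TRIP6 lie lower and PDLIM5 higher in both add-back groups than in Actin KO, and PDLIM5 in SETD3 KO2 (26.8 to 49.3 CPM) lies below SETD3 CT.

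The other PDZ-LIM genes did not pass the test in these comparisons. PDLIM2 (ENSG00000120913, chromosome 8, 22578279 to 22598025, plus strand), which also marks nuclear transcription factors for degradation, stood at 40.0, 77.2 and 56.6 CPM in ACTB-mut and 40.2, 22.6 and 25.8 CPM in ACTB-WT, against 50, 65.9 and 43.6 CPM in Actin KO. It shares 465 exon bases, of 12388, with the protein-coding AC037459.1 on the same strand, so a strand setting would not separate their reads. Its ACTB-WT libraries all lay below Actin KO, with a difference of -0.85 (SE 0.29, interval -1.47 to -0.24, unadjusted p = 0.00958, adjusted p = 0.226 in edgeR). PDLIM1 (CLP36, an alpha-actinin partner, ENSG00000107438, chromosome 10, 95237572 to 95291024, minus strand) was found at 97.1, 65.1 and 116 CPM in ACTB-mut and 71.0, 81.0 and 76.2 CPM in ACTB-WT, against 121, 83 and 86.3 CPM in Actin KO. The ACTB-WT libraries again lay just below those of Actin KO (difference -0.35, adjusted p = 0.614), and the ACTB-mut libraries overlapped them (-0.06, adjusted p = 0.97). PDLIM7 (Enigma, ENSG00000196923, chromosome 5, 177483394 to 177497606, minus strand) was found at 87.2, 79.9 and 62.9 CPM in ACTB-mut and 72, 88.4 and 88.9 CPM in ACTB-WT, against 79.3, 92.4 and 111 CPM in Actin KO, and the groups overlapped. PDLIM4 (RIL, ENSG00000131435, chromosome 5, 132257671 to 132273454, plus strand) was at or near 0: it had 16, 0 and 4 counts in ACTB-mut and none in the other 15 libraries, and was too low to be tested. A count of 0 over the 9 SETD3 libraries allows up to 0.0427 CPM, the worth of 3 counts, by counting error alone.

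FHL2 (ENSG00000115641, chromosome 2, 105357712 to 105438513, minus strand), a protein built of LIM domains alone that serves as a transcription cofactor, stood at 105, 115 and 98.8 CPM in ACTB-mut and 127, 110 and 89.1 CPM in ACTB-WT, against 131, 137 and 123 CPM in Actin KO. The ACTB-mut libraries lay below those of Actin KO and the ACTB-WT libraries overlapped them. The differences were -0.29 in ACTB-mut (interval -0.63 to 0.04, adjusted p = 0.514) and -0.27 in ACTB-WT (interval -0.60 to 0.07, adjusted p = 0.587). LIMA1 (EPLIN, ENSG00000050405, chromosome 12, 50175788 to 50283546, minus strand) bundles filaments and links them to cadherin junctions. It stood at 24.3, 20.1 and 9.64 CPM in ACTB-mut and 16.7, 5.78 and 12.2 CPM in ACTB-WT, against 17.8, 12.0 and 7.53 CPM in Actin KO. Its groups overlapped, and its differences were 0.54 in ACTB-mut (adjusted p = 0.77) and -0.11 in ACTB-WT (adjusted p = 0.976). In ACTB-WT against Actin KO the libraries of 5 of 9 members did not overlap, 1 higher and 4 lower, where 16.7% of all tested genes showed no overlap (7.64% higher and 9.08% lower). In ACTB-mut against Actin KO this held for 4 of 9, 1 higher and 3 lower, where the share over all genes was 18.5% (9.31% higher and 9.16% lower).

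**Figure D2:**
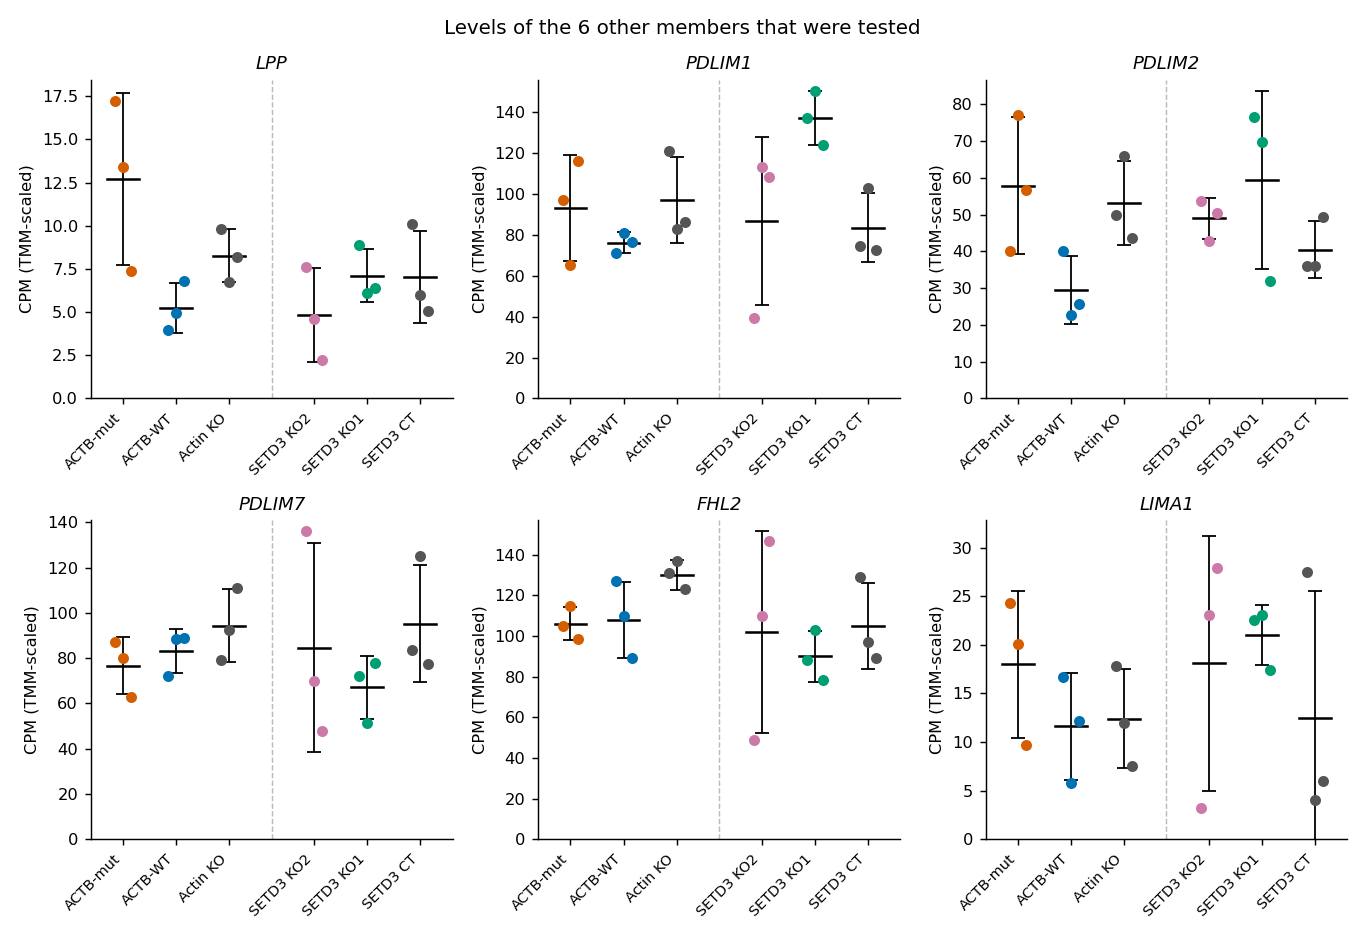
TMM-scaled CPM of the other 6 tested members in each library (points), with the group mean (bar) and SD (whiskers) of 3 libraries. PDLIM1, PDLIM7, FHL2 and LIMA1 spread widely in SETD3 KO2 and PDLIM2 (49.0 ± 5.63 CPM) does not, and the lower whisker of LIMA1 in SETD3 CT (12.5 ± 13.0 CPM) is clipped at 0.

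ACTB-mut against ACTB-WT compares the libraries labelled with the H73A form and those labelled with wild-type actin, both made from Actin KO cells. The counts do not show how much added actin either group made, so a difference need not come from H73A itself. No member was called in edgeR, where 1.24% of all 13882 tested genes were called. Of the 9 members 2 had an unadjusted p below 0.05 in edgeR, as did 1666 of all 13882 tested genes. DESeq2 and limma-voom called no member, where they called 3.21% and 1.19% of all tested genes. For the genes that differed from Actin KO, the differences between the add-backs were small: -0.04 for PDLIM5 (interval -0.47 to 0.39, adjusted p = 0.973), -0.02 for ZYX (-0.43 to 0.40, adjusted p = 0.988) and 0.10 for TRIP6 (-0.16 to 0.35, adjusted p = 0.855). These intervals leave room for differences of about that width, but not for one as large as either add-back's difference from Actin KO in PDLIM5 or ZYX. LPP averaged 12.7 ± 4.98 CPM in ACTB-mut and 5.25 ± 1.43 CPM in ACTB-WT (SD, n = 3 each), with no overlap (difference 1.27, interval 0.25 to 2.29, adjusted p = 0.283 in edgeR). It was the 1 member of 9 whose libraries did not overlap, where 18.1% of all tested genes showed none (9.93% with ACTB-mut higher). PDLIM2 averaged 57.9 ± 18.6 CPM in ACTB-mut and 29.5 ± 9.37 CPM in ACTB-WT (SD, n = 3 each), and the lowest ACTB-mut library met the highest ACTB-WT library at 40 CPM. Its difference was 0.98 (interval 0.36 to 1.59, adjusted p = 0.136 in edgeR).

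Base composition moved with the comparisons of ACTB-mut. Over 3828 genes above 32 CPM, the log2 fold change fell with the GC content of the transcript in ACTB-mut against Actin KO (r = -0.341 across genes, which are not independent replicates), and r was -0.025 in ACTB-WT against Actin KO. In ACTB-mut the median change was 0.18 for genes under 42% GC and -0.19 for genes over 62% GC. The GC content was 64.9% in ZYX, 63.2% in TRIP6 and 40.3% in PDLIM5, so each lies on the side of its own change. With offsets for GC and length, the ACTB-mut changes were 1.60 for PDLIM5 (adjusted p = 0.00247), -0.98 for ZYX (0.0293) and -0.34 for TRIP6 (0.211) in edgeR. With the same offsets the ACTB-WT changes were 1.73 for PDLIM5, -1.08 for ZYX and -0.55 for TRIP6, all called. Mitochondrially encoded transcripts, read as a sign of RNA quality, summed to 7820 to 13500 CPM a library in ACTB-mut and 5430 to 6600 CPM in ACTB-WT, against 6390 to 7260 CPM in Actin KO. In the SETD3 table they summed to 8650 to 12000 CPM in KO2 and 6850 to 8280 CPM in KO1, against 8020 to 15400 CPM in SETD3 CT. The part of these transcripts in the results was not tested.

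In the SETD3 table no member was called in edgeR. The share of all 13846 tested genes called was 0.0578% in KO2 against SETD3 CT, 0.0144% in KO1 against SETD3 CT, 0.0433% for the mean of both lines against SETD3 CT and 0.0289% in KO2 against KO1, so calls of any gene were few. An unadjusted p below 0.05 was found for 1 member in KO2 against SETD3 CT, none in KO1 against SETD3 CT, 1 for the mean of both lines and 1 in KO2 against KO1. In each case that member was PDLIM5. Over all 13846 tested genes, 686, 796, 787 and 670 had such a p, in the same order. DESeq2 called 1 member, PDLIM5 in KO2 against SETD3 CT, where it called 90 of all 13846 genes (0.65%), and limma-voom called none.

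PDLIM5 stood at 49.3, 26.8 and 43.9 CPM in KO2 and 67.8, 62.3 and 85.1 CPM in KO1, against 85.2, 84.7 and 108 CPM in SETD3 CT. The KO2 libraries lay below all others of the table, and those of KO1 overlapped the control by 1 library. The difference in KO2 was -1.22 (SE 0.28, interval -1.82 to -0.62, unadjusted p = 0.000737), with an adjusted p of 0.262 in edgeR and 0.0148 in DESeq2. In KO1 it was -0.37 (interval -0.96 to 0.22, adjusted p = 0.998), and between KO2 and KO1 it was -0.85 (interval -1.44 to -0.25, adjusted p = 0.926). Without the shallowest libraries, KO2 replicate 1 and SETD3 CT replicate 2, the KO2 difference was -1.45 (adjusted p = 0.214), the KO1 difference -0.42 and that between KO2 and KO1 -1.02, an alternative chosen after seeing the data. PDLIM5 was the 1 member without overlap between KO2 and SETD3 CT, where 10.2% of all tested genes showed none (5.28% with KO2 lower).

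PDLIM1 stood highest in KO1, without passing the test. It stood at 39.1, 113 and 108 CPM in KO2 and 137, 150 and 124 CPM in KO1, against 74.5, 103 and 72.6 CPM in SETD3 CT. The KO1 libraries lay above all others of the table. The KO1 difference was 0.72 (interval -0.0038 to 1.44, unadjusted p = 0.051, adjusted p = 0.869 in edgeR), and 0.91 (adjusted p = 0.173) without the shallowest libraries. PDLIM1 was the 1 member without overlap between KO1 and SETD3 CT, where the share over all genes was 13.2% (6.47% with KO1 higher). Between KO2 and KO1, PDLIM5 and PDLIM1 were the 2 members without overlap, both lower in KO2, where the share over all genes was 11.9% (5.76% with KO2 lower). KO2 replicate 1 held the lowest PDLIM1 value of the table. Without the shallowest libraries the PDLIM1 difference between KO2 and KO1 was -0.32 in place of -0.65, and that between KO2 and SETD3 CT was 0.59 in place of 0.07.

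ZYX and TRIP6 overlapped in every SETD3 comparison. ZYX stood at 400, 235 and 193 CPM in KO2 and 262, 256 and 348 CPM in KO1, against 229, 481 and 290 CPM in SETD3 CT. The highest value in KO2 and the highest in SETD3 CT both came from the shallowest libraries. Its differences from SETD3 CT were -0.27 in KO2 (interval -0.94 to 0.40) and -0.21 in KO1 (interval -0.87 to 0.46), and without those libraries -0.27 in KO2 and 0.16 in KO1. TRIP6 stood at 766, 549 and 518 CPM in KO2 and 530, 606 and 605 CPM in KO1, against 460, 571 and 465 CPM in SETD3 CT. Its differences were 0.29 in KO2 (interval -0.11 to 0.70) and 0.22 in KO1 (interval -0.19 to 0.62), and without the shallowest libraries 0.21 in KO2 and 0.34 in KO1. Without KO2 replicate 1 alone, the highest TRIP6 value, the KO2 difference was 0.10. For both genes the intervals for KO2 and KO1 extend past 0 on each side.

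Among the remaining members of the SETD3 table, FHL2, PDLIM7 and LIMA1 spread more widely in KO2 than PDLIM2 did. FHL2 stood at 48.7, 110 and 147 CPM in KO2, where KO2 replicate 1 was the lowest, and averaged 90.0 ± 12.4 CPM in KO1 and 105 ± 21.1 CPM in SETD3 CT (SD, n = 3 each). PDLIM7 stood at 136, 69.8 and 48.0 CPM in KO2, where the same library was the highest, and averaged 67.1 ± 13.9 CPM in KO1 and 95.3 ± 25.9 CPM in SETD3 CT. LIMA1 stood at 3.18, 23.1 and 27.9 CPM in KO2 and averaged 21.0 ± 3.12 CPM in KO1, against 27.5, 3.99 and 5.94 CPM in SETD3 CT. PDLIM2 averaged 49.0 ± 5.63 CPM in KO2 and 59.4 ± 24.1 CPM in KO1, against 40.4 ± 7.76 CPM in SETD3 CT. LPP averaged 4.83 ± 2.71 CPM in KO2 and 7.12 ± 1.53 CPM in KO1, against 7.04 ± 2.68 CPM in SETD3 CT. None of these 5 members separated the groups of the table. Their differences between KO2 and SETD3 CT were -0.04 for FHL2, -0.18 for PDLIM7, 0.54 for LIMA1, 0.27 for PDLIM2 and -0.57 for LPP, and without the shallowest libraries 0.25, -0.44, 0.61, 0.13 and -1.14 in the same order. Between KO1 and SETD3 CT they were -0.22 for FHL2, -0.50 for PDLIM7, 0.74 for LIMA1, 0.55 for PDLIM2 and 0.01 for LPP, and without those libraries -0.26, -0.25, 0.34, 0.49 and -0.0789.

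**Figure D3:**
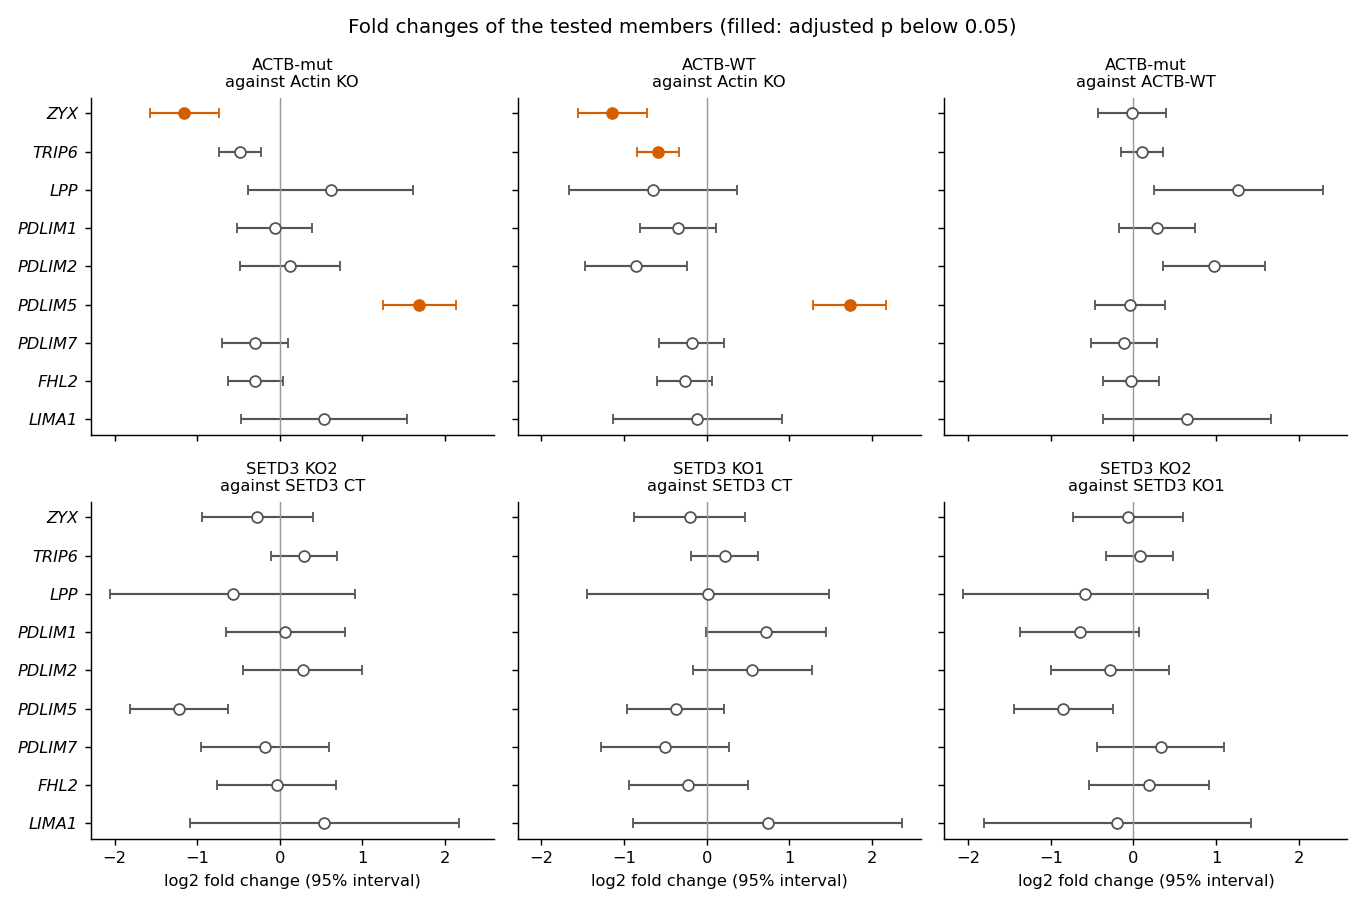
Log2 fold changes of the 9 tested members in 6 comparisons (points), with 95% intervals (bars); filled points are called. Calls are limited to ZYX and PDLIM5 in both add-backs against Actin KO and TRIP6 in ACTB-WT, while PDLIM5 in KO2 against SETD3 CT (-1.22) has an interval that leaves out 0 but an adjusted p of 0.262.

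Scaled by transcript length, the members kept nearly the same order of levels in all 6 groups. TRIP6 was the highest, at 238 ± 11.8 CPM per kilobase in ACTB-mut and 222 ± 31.8 in ACTB-WT, against 334 ± 22.0 in Actin KO (SD, n = 3 each). ZYX came next, at 83.2 ± 21.9 in ACTB-mut and 84.1 ± 21.3 in ACTB-WT, against 186 ± 12.1 in Actin KO, and its libraries overlapped those of FHL2 in both add-back groups. FHL2, PDLIM1 and PDLIM7 followed, at 81.5 ± 4.53, 66.7 ± 14.5 and 49.6 ± 8.43 CPM per kilobase in Actin KO. FHL2 and PDLIM1 did not differ beyond their spread in most groups, and PDLIM1 stood above FHL2 in KO1 (94.4 and 56.2). PDLIM5 and PDLIM2 changed places: PDLIM5 stood at 20.7 ± 1.33 in ACTB-mut and 21.3 ± 2.17 in ACTB-WT, above PDLIM2 at 8.83 ± 2.84 and 4.50 ± 1.43, while in Actin KO PDLIM5 (6.41 ± 1.94) and PDLIM2 (8.11 ± 1.75) lay within their spread. They also lay close in KO2, at 6.43 for PDLIM5 and 7.47 for PDLIM2, against 14.9 and 6.16 in SETD3 CT. LIMA1, LPP and PDLIM4 were the lowest, in that order, in every group. Summed over the members, CPM was 1140 to 1180 in ACTB-mut and 1010 to 1140 in ACTB-WT, against 1470 to 1590 in Actin KO, and TRIP6 and ZYX made up most of it.

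**Figure D4:**
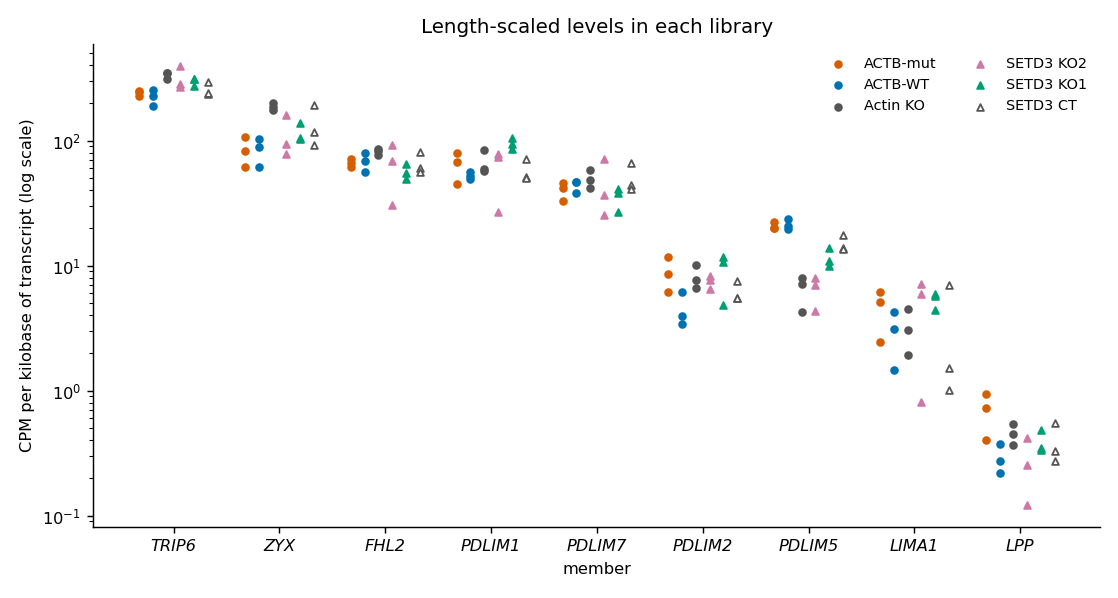
Levels of the 9 tested members per kilobase of transcript (log axis, CPM per kilobase), 1 point a library. TRIP6 leads in all 6 groups, ZYX is highest in Actin KO among the groups of its table, and PDLIM5 lies at the level of PDLIM2 in Actin KO and SETD3 KO2.

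The tables were scaled apart, so levels across them carry no test. Side by side, PDLIM5 averaged 39.9 ± 12.1 CPM in Actin KO and 40.0 ± 11.7 CPM in SETD3 KO2, 71.7 ± 11.9 CPM in KO1 and 92.8 ± 13.6 CPM in SETD3 CT, and 129 ± 8.30 CPM in ACTB-mut and 132 ± 13.5 CPM in ACTB-WT. ZYX averaged 463 ± 30.3 CPM in Actin KO and 333 ± 132 CPM in SETD3 CT. Of the SETD3 CT libraries only replicate 2 (481 CPM), among the shallowest, reached the Actin KO level, and the others stood at 229 and 290 CPM. TRIP6 averaged 648 ± 42.7 CPM in Actin KO and 499 ± 62.5 CPM in SETD3 CT.

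The test called no relative of these genes. None of 4 zyxin family relatives (AJUBA, LIMD1, WTIP and FBLIM1), 3 measured of 5 other PDZ-LIM and FHL genes, or 22 measured of 25 further LIM proteins was called by edgeR in any comparison of the ACTB table, nor any of their members in the SETD3 table. In the ACTB table an unadjusted p below 0.05 was reached by at most 1 of the zyxin relatives, none of the PDZ-LIM and FHL genes and 3 to 5 of the further LIM proteins in a comparison. Over all 13882 tested genes, 1559 to 1666 reached it. DESeq2 called 1 further LIM protein in ACTB-mut against Actin KO, beside 2.63% of all tested genes, and 1 in ACTB-mut against ACTB-WT, beside 3.21%. Of these lists limma-voom called no gene. Their medians, in that order, were 0.24, -0.19 and -0.19 in ACTB-mut against Actin KO, beside 0.03 over all tested genes, and -0.17, 0.34 and -0.24 in ACTB-WT against Actin KO, beside -0.01. PXN (paxillin, an adhesion scaffold) averaged 126 ± 18.4 CPM in ACTB-mut and 126 ± 5.73 CPM in ACTB-WT, against 190 ± 48.5 CPM in Actin KO (SD, n = 3 each), and was not called (adjusted p = 0.173 in both, edgeR). The 9 SRF, MRTF, YAP, TAZ and TEAD genes were measured, and none was called in any comparison by edgeR, DESeq2 or limma-voom. At most 1 of them reached an unadjusted p below 0.05 in a comparison. Over all tested genes, 1559 to 1666 of 13882 reached it in the ACTB table and 670 to 796 of 13846 in the SETD3 table.

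Genes of other stress fibre proteins were called in both directions. Of 28 measured partners of 31, 2 were higher in ACTB-WT than in Actin KO and none lower by edgeR. Over all tested genes edgeR called 0.439% higher and 0.677% lower. DESeq2 called 3 partners, beside 2.58% of all tested genes, and limma-voom 2, beside 0.764%. TAGLN (transgelin) averaged 144 ± 16.4 CPM in ACTB-WT and 7.08 ± 6.15 CPM in Actin KO (SD, n = 3 each; log2 change 4.35, SE 0.56, edgeR adjusted p = 0.00172). PALLD (palladin, an alpha-actinin partner) averaged 47.2 ± 13.8 CPM in ACTB-WT and 17.3 ± 6.31 CPM in Actin KO (1.45, SE 0.33, adjusted p = 0.0438). In ACTB-mut against Actin KO DESeq2 called 5 partners, beside 2.63% of all tested genes, and limma-voom 3, beside 1.4%. By edgeR 4 fell and none rose, beside 0.598% of all tested genes lower and 0.324% higher. They were FLNA (filamin A, a crosslinker; -0.87, adjusted p = 0.0122), MYH9 (non-muscle myosin heavy chain; -0.75, 0.0136), CNN2 (calponin; -0.58, 0.0137) and EVL (an Ena/VASP protein; -1.94, 0.0222). EVL averaged 3.74 ± 1.2 CPM in ACTB-mut and 22.5 ± 4.32 CPM in ACTB-WT, against 14.4 ± 1.56 CPM in Actin KO. In ACTB-mut against ACTB-WT DESeq2 called 8, beside 3.21% of all tested genes, and limma-voom 5, beside 1.19%. By edgeR 5 fell and none rose, beside 1.24% of all 13882 tested genes called, 84 lower and 88 higher. The 5 were EVL (-2.58, adjusted p = 0.00374), MYH9 (-0.76, 0.0108), TAGLN (-2.86, 0.0177), MYL9 (myosin light chain, -0.73, 0.0273) and FLNA (-0.71, 0.0309). The partners' medians were 0.15 in ACTB-WT against Actin KO, -0.18 in ACTB-mut against Actin KO and -0.38 in ACTB-mut against ACTB-WT. The partner values are given without GC and length offsets, and the part of base composition in them was not tested. The fall of the log2 fold change with GC content was also seen in ACTB-mut against ACTB-WT (r = -0.263). With the offsets edgeR called 101 genes in ACTB-mut against Actin KO, in place of 128, and 117 in ACTB-mut against ACTB-WT, in place of 172. None of the partners was called by edgeR in the SETD3 comparisons. There 0 to 2 reached an unadjusted p below 0.05, beside 670 to 796 of all 13846 tested genes. DESeq2 called 1 in KO1 against SETD3 CT, beside 0.469% of all tested genes, and 1 in KO2 against KO1, beside 0.404%. In KO2 against KO1 limma-voom also called 1, beside 0.065%.

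The genes whose levels ran most like the 3 called members over the 9 ACTB libraries were named by Pearson r of log2 CPM, among 3981 genes averaging at least 30 CPM. The 9 points share 3 groups and their library depths, so r is a description of likeness. For ZYX they were PLAU (the urokinase protease, r = 0.953), HIPK2 (a nuclear kinase, 0.947) and NFIC (a transcription factor, 0.935). For TRIP6 they were FOSL1 (an AP-1 subunit, 0.94), UBE2V1 (a ubiquitin-conjugating enzyme variant, 0.936) and CANT1 (a nucleotidase, 0.929). For PDLIM5 they were HMGB1 (a chromatin protein, 0.955), ODC1 (the first enzyme of polyamine synthesis, 0.95) and H3-3A (a histone H3 variant gene, 0.944).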

How the data were processed

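Poly(A)-selected RNA was sequenced from 18 HCT-116 libraries in 6 groups of 3. The deposited values are expected counts per gene, not normalised. Per the submitters' processing notes, the tools were Trim Galore 0.4.5, cutadapt 1.15, RSEM 1.2.28 and Bowtie2 on GRCh38; the annotation release and strand setting are not given in the sources used here. RSEM divides reads that align to several genes, so a count need not be whole. Expected counts were rounded, and each table was fitted alone with its 3 groups in edgeR 4.0.16 (R 4.3.3; filterByExpr, TMM, robust quasi-likelihood F tests, two-sided). P-values were adjusted by the Benjamini-Hochberg method over the 13882 tested genes of the ACTB table or the 13846 of the SETD3 table. A gene is called at an adjusted p below 0.05. The standard error (SE) of a log2 fold change was derived from its F statistic, and its 95% interval from the fit's degrees of freedom. Levels are TMM-scaled CPM (counts per 1000000).

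Every library had a matched column in the tables. Coordinates, transcript lengths and GC content came from GENCODE release 29, which matched 58437 of the 60683 row identifiers. For length scaling, the longest principal transcript of a gene was used. The members and the companion lists were chosen with earlier results of these data known. All 10 members are accounted for. The 3 genes most like each called member were taken by Pearson r of log2(CPM + 1) over the 9 libraries of its table, among genes averaging at least 30 CPM. From the companion lists at most 6 called genes a comparison are named, and genes that were not called are said to be so. Promoter windows came from RefSeq on GRCh38.p14. The alternatives were DESeq2 1.42.0, limma-voom (limma 3.58.1), other scaling factors, no filter on low counts, unrounded counts, GC and length offsets, a replicate block, the compared groups alone, and each library left out in turn. The fitting steps were tested on simulated counts.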

Additional observations from a re-analysis of the deposited data

How the results depend on the processing

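For the rare LPP and LIMA1 the 95% intervals spanned about 2 log2 units or more, so the size of their changes was loosely estimated. Of LPP the interval in ACTB-mut against ACTB-WT (0.25 to 2.29) left out 0, with an adjusted p of 0.283 in edgeR. In the SETD3 table few genes of any kind were called, and the cause was not tested. Of 999 alternative values of single members, 405 came from leaving out a library (361 kept direction and side of the threshold, 38 reversed, 6 lost the call) and 594 from other alternatives (575, 11 and 2, and 6 gained a call). In ACTB-mut against Actin KO, members called ranged from 1 to 2 when a library was left out, beside 0.229% to 0.52% of all tested genes. In ACTB-mut against ACTB-WT, 1 member was called without the filter on low counts (PDLIM2, edgeR adjusted p = 0.0123), beside 1.64% of all 24491 genes. In KO2 against SETD3 CT, 1 was called without the filter (PDLIM5, 0.0425), beside 0.278% of all 24426 genes. There DESeq2 called 1 (PDLIM5, 0.0148), beside 0.65%. TRIP6 in ACTB-mut against Actin KO was called without the filter (0.0337), by DESeq2 (0.00488) and by limma-voom (0.0208). The cause of these moves was not tested.

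Same-numbered samples showed no pairing common to all groups: the correlation of their deviations was -0.157 to 0.125 among ACTB libraries and -0.565 to 0.245 among SETD3 libraries. Between Actin KO and ACTB-mut alone, r was 0.071, 0.103 and 0.125 for like numbers and -0.097 to -0.013 for unlike numbers. With the replicate block, 2 members were called in ACTB-WT against Actin KO, beside 0.641% of all tested genes. In ACTB-mut against Actin KO 2 were called, beside 0.612%. Elsewhere 0 were called, beside 0.598% in ACTB-mut against ACTB-WT and 0% to 0.0217% in the SETD3 comparisons. With the block, TRIP6 in ACTB-WT against Actin KO had an adjusted p of 0.0642 in edgeR. With the compared groups alone it had 0.0508. Comparing the groups alone was not run for the mean of both SETD3 lines, which uses all 3 groups. Over the alternatives all-gene calls ranged from 79 to 358 in ACTB-WT against Actin KO (155 as reported), 34 to 371 in ACTB-mut against Actin KO (128), 60 to 446 in ACTB-mut against ACTB-WT (172), 1 to 90 in KO2 against SETD3 CT (8), 0 to 65 in KO1 against SETD3 CT (2), 0 to 92 for the mean of both lines (6) and 3 to 58 in KO2 against KO1 (4).

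Every reversal was in a difference that was not called. ZYX in ACTB-mut against ACTB-WT was 0.0926 with GC and length offsets. LPP in KO1 against SETD3 CT was -0.005 with upper-quartile factors and -0.0393 with limma-voom, PDLIM1 in KO2 against SETD3 CT was -0.0052 with the replicate block, and TRIP6 in KO2 against KO1 was -0.0018 with limma-voom. Without the 2 shallowest SETD3 libraries, chosen after seeing the data, ZYX and LPP in KO1 against SETD3 CT were 0.16 and -0.0789, FHL2 in KO2 against SETD3 CT was 0.25, and in KO2 against KO1 TRIP6, PDLIM7 and LIMA1 were -0.13, -0.19 and 0.27. With a library left out, ranges that crossed 0 in ACTB-mut against ACTB-WT were -0.16 to 0.0935 for FHL2, -0.10 to 0.0417 for PDLIM5, -0.22 to 0.0005 for PDLIM7, -0.0112 to 0.20 for TRIP6 and -0.23 to 0.16 for ZYX. Against Actin KO they were -0.48 to 0.23 for LIMA1 in ACTB-WT, and -0.26 to 0.14 for PDLIM1 and -0.15 to 0.33 for PDLIM2 in ACTB-mut. In KO2 against SETD3 CT they were -0.40 to 0.30 for FHL2, -0.16 to 0.41 for PDLIM1, -0.69 to 0.11 for PDLIM7 and -0.63 to 0.0861 for ZYX. In KO1 against SETD3 CT they were -0.18 to 0.37 for LPP and -0.41 to 0.16 for ZYX, and for the mean of both lines -0.31 to 0.0494 for FHL2, -0.51 to 0.0791 for LPP and -0.45 to 0.12 for ZYX. In KO2 against KO1 they were -0.18 to 0.52 for FHL2, -0.64 to 0.28 for LIMA1, -0.19 to 0.61 for PDLIM7, -0.12 to 0.17 for TRIP6 and -0.43 to 0.13 for ZYX.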
